A study of Mus musculus with 2031 samples.

Results

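The 10 genes described here, of 49671 in the deposited count files, act in mitochondrial fatty acid oxidation and ketone body metabolism: *Cpt1a*, *Cpt2*, *Acadvl*, *Acadl*, *Acadm*, *Hadha*, *Hadhb*, *Acaa2*, *Bdh1* and *Dbi*. They were picked by name for their function, all 10 were found in the files, and all 10 were tested in every comparison. The cells were sorted from the cortex and the hippocampus of untreated C57BL/6J mice at postnatal day 56 with an antibody to ATP1B2 (ACSA-2), after exclusion of O1-positive oligodendrocytes and of dead cells. There were 2 cortical suspensions, each from 1 animal of the same litter, and 2 hippocampal suspensions, each pooled from 4 littermates of other litters, so brain area cannot be told apart from litter and pooling. Smart-seq2 counts of 2030 cells were used. The authors' labels matched to these cells divide 1781 astrocytes into 657 AST1, 555 AST2, 452 AST3, 91 AST4 and 26 AST5 cells. The paper counts more astrocytes than this, and 33 cells, all of the first cortical suspension, were not in the list of labels. Mural cells (12 to 48 per suspension), 30 endothelial cells, 17 neurons, 11 microglia and 9 oligodendrocytes passed the same sort.

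Long-chain fatty acids enter mitochondria as carnitine esters. CPT1A on the outer membrane forms the ester and is the rate-limiting, malonyl-CoA-sensitive step, and CPT2 on the inner membrane turns it back into acyl-CoA. A cycle of dehydrogenation (ACADVL, ACADL and ACADM, by chain length), hydration, a further dehydrogenation and thiolysis then releases acetyl-CoA. For long chains the trifunctional protein carries out the steps after the acyl-CoA dehydrogenases. Its subunit HADHA holds the hydratase and dehydrogenase, and its subunit HADHB the thiolase. ACAA2 is a thiolase for medium chains. BDH1 interconverts the ketone bodies acetoacetate and 3-hydroxybutyrate. DBI, the diazepam binding inhibitor or acyl-CoA binding protein, carries long-chain acyl-CoA in the cytosol and is also the precursor of peptides that act on GABA type A receptors. Among brain cells, astrocytes are the main site of fatty acid oxidation.

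Median depth was 1469312 gene counts per astrocyte (600758 to 3238215). In the astrocyte sums the 6 astrocyte markers together held 34142 to 34819 CPM (counts scaled to a common library total) in the 4 suspensions, and the 6 mural, 5 endothelial and 5 neuronal markers held at most 145.7, 2.31 and 19.9 CPM. In the mural sums the mural markers held 48932 to 58889 CPM. The endothelial sums held 14511 to 20308 CPM of endothelial markers and also 10008 to 17265 CPM of mural markers. One subtype stood apart: all 26 AST5 cells had under 3% of their reads outside exons (median 1.59%), as had 37 of the 1781 astrocytes in all, and the summed level of *Malat1*, *Meg3* and *Neat1*, RNAs kept in the nucleus, was 25.6 CPM in AST5 against 10388 CPM over all astrocytes. The part of this in the AST5 values was not tested. Values of each gene are given for counts summed over the cells of a subtype, or type, and a suspension (at least 5 cells), as CPM after TMM scaling. TMM multiplies each library size by a factor computed across genes. Fits used the quasi-likelihood test of edgeR on these sums, and called genes are those with an adjusted p under 0.05 (Benjamini-Hochberg, over all genes tested). The authors drew the subtypes from the same counts, so a p for a subtype is not independent evidence of a difference. In sums, fewer cells with RNA of a gene and less RNA per cell cannot be told apart, and shares of cells are therefore given as well. Each suspension gives 1 sum per group. Fits over several subtypes or types take the sums of a suspension as independent, so their p-values measure the spread between sums. Only the area fit over all astrocytes has 1 sum per suspension.

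Summed over all astrocytes, the most abundant of the 10 per length was *Dbi*, at 505 CPM per kilobase of exon (326.4 to 669 in the 4 suspensions). By CPM, 99.4% of the 26170 detected genes lay below *Dbi*. *Acaa2* followed at 156.5 CPM per kilobase (133.5 to 184.2) and *Acadl* at 127.2 (106.6 to 150), ranges that overlap. *Acadvl* was at 56.7 CPM per kilobase (52.9 to 60.7), above *Hadhb* at 46.7 (45.2 to 49.2) and *Acadm* at 40.2 (35.99 to 51.99), which overlap each other. The lowest mean levels per kilobase were those of *Cpt2* (30.1), *Bdh1* (25.997), *Hadha* (23.98) and *Cpt1a* (21.3). Their ranges were 22.2 to 37.2, 19.94 to 28.95, 23.3 to 24.6 and 19.1 to 25.5, with an order that changed between suspensions. In the first cortical suspension *Cpt2* (37.2) lay above *Acadm* (35.99). Lengths are the union of the annotated exons of a gene, 8730 bases for *Hadha* and 6595 for *Hadhb*. A union can be longer than any single transcript, so the order per kilobase depends on this choice and is not an order per transcript. The order by CPM differed: of the 10, *Hadhb* ranked 2 by CPM and 5 per kilobase, and *Hadha* 5 and 9. *Dbi* was first in each of the 4 suspensions.

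Counts of *Dbi* were present in nearly every astrocyte, while each of the other 9 genes was missing from many. At least 1 count of *Dbi* was found in 1703 of 1781 astrocytes (95.6%, and 95.5% after thinning each cell to 50000 gene counts). The next highest share was that of *Hadhb* with 66.6% (63.8% thinned), and the lowest was that of *Cpt2* with 12.9% (12.1% thinned). The remaining 7 lay between 28.4% for *Cpt1a* and 48.5% for *Acadl*. A cell held a count of 4 of the 10 genes at the median, none held all 10, and 4 of 1781 astrocytes held none. With 5 counts required in place of 1, the shares of *Dbi* and *Acadl* were 95.6% and 46.5%. Intervals and floors given below cover counting error only, since reads of a PCR without molecular tags are not independent molecules.

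**Figure D1:**
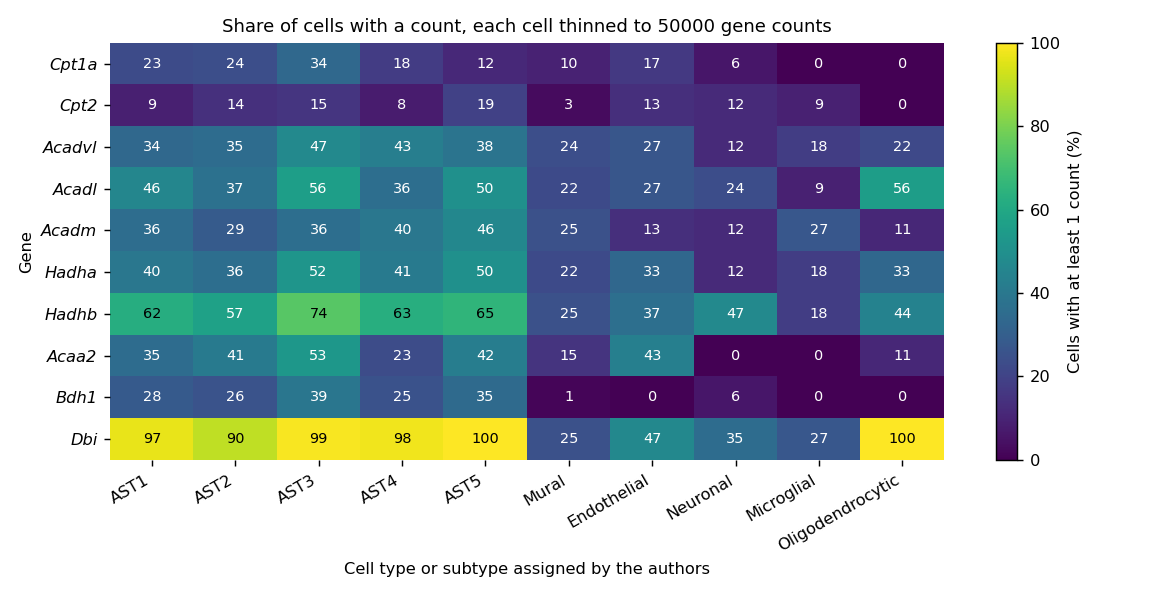
Share of cells with at least 1 count of each gene (rows) in the subtypes and cell types assigned by the authors (columns), in percent, with every cell thinned to 50000 gene counts. The *Dbi* row lies between 90.5 and 100% in the 5 astrocyte subtypes and at 24.6% in mural cells, and the *Bdh1* row is at 0 in endothelial cells, microglia and oligodendrocytes.

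*Dbi* (ENSMUSG00000026385) lies on the minus strand of chromosome 1 (chr1:120113280-120121078) in 5 exon blocks; positions of genes are those of Gencode M21 on GRCm38.

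*Dbi* was highest in AST4, the hippocampal subtype that carries *Frzb* and *Sfrp1*. Its level there was 1737 and 1607 CPM in the first and second hippocampal suspension. In AST1 it was 736 and 641 CPM in the cortical and 948 and 987 CPM in the hippocampal suspensions. In AST3 it was 634 and 612 CPM in cortex and 1027 and 1026 CPM in hippocampus. AST5 had 631 and 963 CPM in cortex and 1070 CPM in hippocampus. AST2 had the lowest levels of each suspension, 448 and 409 CPM in cortex and 554 and 655 CPM in hippocampus. Both AST4 sums lay above the other 15 sums, and AST1, AST3 and AST5 overlapped one another. Without TMM, AST5 had 848 and 1311 CPM in cortex and 1739 CPM in hippocampus, above every AST1 sum (at most 832 CPM). The AST4 sums then had 1920 and 1798 CPM.

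Against the other subtypes, *Dbi* rose in AST4 by 0.99 ± 0.14 (SE) on the log2 scale (adjusted p = 0.0027), a 1.99-fold higher level. It was the only one of the 10 called there, where 0.636% of all 18233 genes tested were called. The call held under 13 of 15 other settings, with log2 differences of 0.89 to 1.47, and was lost when either hippocampal suspension was left out (adjusted p = 0.178 and 0.218), which leaves AST4 with 1 sum, assumed to vary like the other groups. Without TMM the difference was 1.27. Read against the ERCC spike-ins added to each well, AST4 held 0.0429 and 0.0456 *Dbi* reads per ERCC read, and the other subtypes 0.00762 to 0.0259. Over single cells the median was 1807 CPM in AST4 (10th to 90th percentile 936 to 2728 CPM) and 693 CPM in AST1 (202.6 to 1414 CPM). In AST5 the median was 1112 CPM (399.6 to 2272 CPM). The study lists *Dbi* among the AST4 and AST5 markers found on these cells.

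The AST4 and AST1 cells of a plate shared their suspension and their sort. On 14 hippocampal plates with at least 3 cells of both, *Dbi* was higher in AST4 on 14, with a median log2 ratio of 1.14 (0.39 to 1.59). On 16 cortical plates, *Dbi* was lower in AST2 than in AST3 on 16, with a median log2 ratio of −0.56 (−1.06 to −0.28). Plates of a suspension are not replicates, and the subtypes compared on them were drawn from the same counts.

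**Figure D2:**
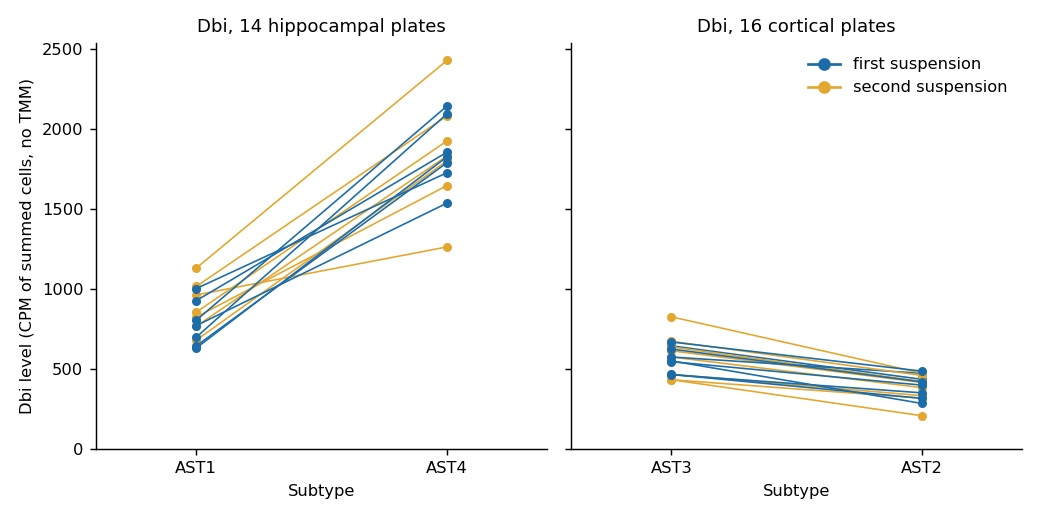
Level of *Dbi* (CPM without TMM scaling, vertical axis) in the summed cells of the subtypes named on the horizontal axis, with 1 line per plate and the color giving the suspension. Each of the 14 hippocampal lines goes up from AST1 to AST4, and each of the 16 cortical lines goes down from AST3 to AST2.

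In AST2 *Dbi* fell by 0.73 ± 0.12 on the log2 scale (adjusted p = 0.0439, 1.66-fold lower), again alone among the 10, with 0.0548% of all genes called. This call was made in 4 of 15 other settings and in none of those that left out a suspension (adjusted p from 0.227 to 1). With the suspension as a replicate block it was lost (adjusted p = 0.1425), while the log2 difference stayed between −0.92 and −0.57. In AST5 *Dbi* was called higher by 0.38 ± 0.12 (adjusted p = 0.0417, 1.30-fold), in sums of 6 to 10 cells where 17% of all genes were called and the median log2 difference of all genes was −4.55. It was called in 5 of 14 other settings, none of which left out a suspension, and was lost with the replicate block (adjusted p = 0.0758). In 1 of the 5, with at least 10 cells per sum, AST5 had a single sum. The difference was 1.06 without TMM and, with TMM kept, 0.09 without the second cortical suspension. *Dbi* differed by 0.28 ± 0.11 in AST1 (adjusted p = 0.955) and by 0.20 ± 0.11 in AST3 (adjusted p = 1), and was not called. Those differences turned to −0.064 and −0.0975 when the other subtypes were weighted equally.

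**Figure D3:**
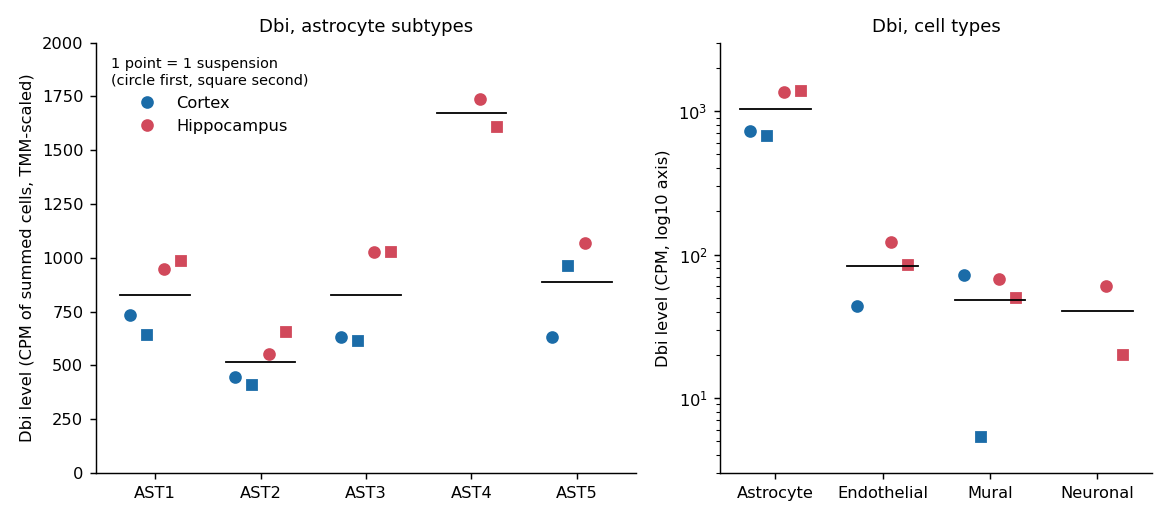
Level of *Dbi* in CPM for each summed suspension (1 point each; circles and squares are the first and second suspension of an area, bars are means), on a linear axis for the 5 astrocyte subtypes and on a log10 axis for the cell types. AST4 lies at 1607 and 1737 CPM above every other subtype sum, and mural, endothelial and neuronal sums lie between 5.32 and 121.9 CPM; the panels come from separate fits with their own TMM factors.

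Hippocampal astrocytes held more *Dbi* than cortical ones. Over all astrocytes the level was 507 and 464 CPM in the cortical suspensions and 952 and 951 CPM in the hippocampal ones, which do not overlap. The difference was 0.97 ± 0.07 on the log2 scale and was not called by edgeR (adjusted p = 0.135), which called no gene there (0% of 19160, with 2609 at an unadjusted p under 0.05). *Dbi* was called by DESeq2 (adjusted p = 2.206e-38, with 9.70% of all genes called), by limma (0.0212, with 2.64%) and after thinning (0.00923, with 1.38%). The areas differ in subtypes, with 240 AST2 cells in the first cortical suspension but 10 and 22 in the hippocampal ones. At equal subtype the difference was 0.54 ± 0.10 (adjusted p = 0.243, with 0% of 18233 genes called, 664 genes under an unadjusted p of 0.05 and 4.95% called by DESeq2). That fit takes the subtype sums of a suspension as independent, while each area has 2 suspensions. *Dbi* was called there by DESeq2 (0.63, adjusted p = 0.00171), with at least 10 cells per sum (0.57, adjusted p = 0.0206) and without the cells nearly lacking reads outside exons (0.57, adjusted p = 0.0219), the last a setting chosen after the values were seen.

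Within AST1, AST2 and AST3 the hippocampal sums of *Dbi* lay above the cortical sums without overlap. The differences were 0.49 ± 0.12 in AST1 (adjusted p = 0.635, with 0.0109% of all genes called), 0.50 ± 0.12 in AST2 (adjusted p = 0.0682, with 4.16% called) and 0.72 ± 0.12 in AST3 (adjusted p = 0.390, with 0.0272% called). DESeq2 called *Dbi* in each (adjusted p = 0.0168, 7.04e-06 and 2.92e-06), in fits that called 8.48%, 23.1% and 6.79% of all genes. Whether the area difference itself differed between these subtypes was tested for every gene, with 1.81% called, and *Dbi* was not among them (adjusted p = 0.796). Cells of both areas shared 10 of the 11 reverse transcription dates, and within dates *Dbi* was higher in hippocampus on 8 of 10 in AST1 (median log2 ratio 0.57, −0.54 to 1.30), 6 of 7 in AST2 (0.64, −0.079 to 1.59) and 9 of 10 in AST3 (0.59, −0.028 to 0.87). Over the 3 subtypes pooled, whose shares differ between areas, it was higher on 10 of 10 (0.81, 0.24 to 1.20). Dates divide cells of the same suspensions and are not replicates of an area.

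Outside the astrocytes *Dbi* fell in the mural, endothelial and neuronal sums. Fitted together with these types, the astrocyte sums held 730 and 670 CPM in cortex and 1348 and 1388 CPM in hippocampus. The mural sums held 71.7 and 5.32 CPM in cortex and 66.96 and 49.4 CPM in hippocampus. The endothelial sums held 43.8 CPM in the first cortical and 121.9 and 84.6 CPM in the hippocampal suspensions, and the neuronal sums, from hippocampus only, held 60.2 and 19.995 CPM. The highest of them, at 121.9 CPM, lay well below the lowest astrocyte sum of 670 CPM.

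Against astrocytes *Dbi* differed by −4.36 ± 0.73 on the log2 scale in mural cells (adjusted p = 0.00735), with 15.1% of 17404 genes called. The difference was −3.80 ± 0.80 in endothelial cells (adjusted p = 0.0266), with 5.61% called, and −5.05 ± 1.04 in neurons (adjusted p = 0.0278), with 2.86% called. The median log2 difference of all genes was −1.36 in mural cells, −2.60 in endothelial cells and −2.34 in neurons. The mural and neuronal calls were lost without either hippocampal suspension (adjusted p from 0.107 to 0.325), which leaves the neurons with 1 sum, and the endothelial call without the first cortical or either hippocampal suspension (0.0956 to 0.164) and with at least 10 cells per sum (0.195), which leaves 1 endothelial sum. A lone sum is assumed to vary like the other groups. Without TMM the differences were −3.79, −2.99 and −3.96, the last 2 no longer called (adjusted p = 0.0536 and 0.0710). Astrocyte markers were at 317.7, 140.6 and 41.2 CPM in mural, endothelial and neuronal cells, against 34505 CPM in astrocytes.

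A count of *Dbi* was found in 28.4% of mural cells (Wilson 95% interval 21.4 to 36.5%), 46.7% of endothelial cells (30.2 to 63.9%), 7 of 17 neurons and 3 of 11 microglia. Oligodendrocytes differed from these, with a count in 9 of 9 cells and 622 CPM over their pooled counts. Pooled astrocytes had 694 CPM, and no suspension held 5 oligodendrocytes and no test was made.

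The carnitine shuttle genes varied widely between sums. *Cpt1a* (ENSMUSG00000024900, chr19:3322334-3385733, plus strand) was found in 506 of 1781 astrocytes. It lay at 190 and 200.7 CPM in cortical and 168.6 and 176.01 CPM in hippocampal AST1, and at 185 and 186.5 CPM in cortical and 227.7 and 242.9 CPM in hippocampal AST3. AST4 had 54.5 and 121.02 CPM, both below those 8 sums. The AST2 sums ran from 78.4 to 236.4 CPM, and AST5 had 5 and 12 counts in its first cortical and its hippocampal sum against 188 CPM in its second cortical sum. With all 4 suspensions edgeR called no subtype difference of *Cpt1a*. It was −0.82 ± 1.42 in AST4 (adjusted p = 1) and −1.82 ± 1.31 in AST5 (adjusted p = 0.438). In AST5 limma called it lower (−1.45, adjusted p = 0.0186, with 18.5% of all genes called). Without the second cortical suspension edgeR called it there as well, which leaves the sums with 5 and 12 counts.

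*Cpt2* (ENSMUSG00000028607, chr4:107903981-107923610, minus strand) was found in 12.9% of 1781 astrocytes. Over all astrocytes it lay at 88.9 and 81.7 CPM in cortex and 64.5 and 53.03 CPM in hippocampus, which do not overlap (−0.54 ± 0.15, adjusted p = 0.265). DESeq2 called this difference (adjusted p = 0.0320). At equal subtype it was −0.017 ± 0.90 and was not called by edgeR, DESeq2 or limma. In the subtype sums it ranged from 0 CPM, in the 10 AST2 cells of the first hippocampal suspension, to 135 CPM in the 22 AST2 cells of the second.

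Of the acyl-CoA dehydrogenases, *Acadl*, the long-chain enzyme (ENSMUSG00000026003, chr1:66830839-66863277, minus strand), lay at 180 and 237.8 CPM in cortical and 183.955 and 135.6 CPM in hippocampal AST2. It lay at 298.6 and 284.5 CPM in cortical and 368.7 and 444 CPM in hippocampal AST3, and at 185 and 140 CPM in AST4. The AST1 sums ran from 261.7 to 362.1 CPM, and both the AST1 and the AST3 sums lay above every AST2 sum. The differences of −0.74 ± 0.25 in AST2 and −0.70 ± 0.33 in AST4 were not called (adjusted p = 1 and 0.667). Over all astrocytes *Acadl* had 213.7 and 233.8 CPM in cortex and 271.8 and 300.5 CPM in hippocampus, without overlap (0.36 ± 0.09, adjusted p = 0.255). DESeq2 called that difference too (adjusted p = 0.00914). At equal subtype it was −0.046 ± 0.21 and was not called by edgeR, DESeq2 or limma. A processed pseudogene and a small nuclear RNA gene lie within the span of *Acadl*.

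*Acadvl*, the very-long-chain enzyme (ENSMUSG00000018574, chr11:70010183-70015411, minus strand), had the narrowest spread of the 3 over all astrocytes, 150.2 and 163.05 CPM in cortex and 154.3 and 142.1 CPM in hippocampus. It overlaps *Dvl2* on the other strand, and without the strand setting of the counting, reads of the shared stretch cannot be told apart. *Acadm*, the medium-chain enzyme (ENSMUSG00000062908, chr3:153922357-153944632, minus strand), lay at 140.8 and 141.7 CPM in cortex and 203.4 and 143.8 CPM in hippocampus. The first hippocampal suspension is the high one. Its area difference was 0.30 ± 0.19 (adjusted p = 0.643). In the subtype sums *Acadvl* ran from 0.423 CPM (AST5, first cortical suspension) to 203.96 CPM, and *Acadm* from 4.22 CPM, in the 10 AST2 cells of the first hippocampal suspension, to 262.2 CPM. Neither gene was called in any comparison with all 4 suspensions by edgeR.

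The subunit genes of the trifunctional protein were at close levels in the 4 suspensions. *Hadha* (ENSMUSG00000025745, chr5:30118304-30155162, minus strand) had 206.5 and 203.3 CPM in cortex and 214.5 and 213.04 CPM in hippocampus, an area difference of 0.06 ± 0.07. Its span overlaps *Garem2* on the other strand, with the same limit as for *Acadvl*. *Hadhb* (ENSMUSG00000059447, chr5:30155248-30184593, plus strand) had 297.97 and 302.7 CPM in cortex and 307.6 and 324.4 CPM in hippocampus, a difference of 0.07 ± 0.06. In AST4 *Hadhb* lay at 255.1 and 232.3 CPM, below the other 15 sums, of which the lowest, hippocampal AST5, had 255.8 CPM (−0.54 ± 0.24, adjusted p = 0.606). Without TMM the AST4 sums had 281.9 and 259.9 CPM, and the cortical sums of 265.99 CPM (AST1) and 270.8 CPM (AST2) lay between them. The mural sums of *Hadhb* ran from 83.4 to 362.4 CPM and the endothelial sums from 85.2 to 122.6 CPM (−1.94 ± 0.52 against astrocytes, adjusted p = 0.0549).

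*Hadha* and *Hadhb* stand head to head with 85 bases between their Gencode starts. Their promoter windows, taken from RefSeq starts, overlap in part, and that of *Hadha* spans chr5:30154931-30155230. The *Hadhb* window is shown. It lies at chr5:30155003-30155302 (RefSeq, GRCm38.p6, plus strand) and is 60.7% G and C, against a median of 52.7% over 32851 promoters. Capitals mark GC boxes (GGGCGG or its complement), which occur in 35.7% of all promoters. This window holds 4 of them and the *Hadha* window 1.
Hadhb promoter: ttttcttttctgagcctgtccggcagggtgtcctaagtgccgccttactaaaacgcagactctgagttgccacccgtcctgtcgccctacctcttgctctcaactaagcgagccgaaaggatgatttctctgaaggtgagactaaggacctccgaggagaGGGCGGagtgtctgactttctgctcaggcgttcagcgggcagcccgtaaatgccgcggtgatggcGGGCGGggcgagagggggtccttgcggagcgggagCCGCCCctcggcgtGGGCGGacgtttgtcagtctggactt
Windows were at hand for 9 of the 10 genes, and GC boxes occur in those of 6 (*Acadl*, *Bdh1*, *Cpt1a*, *Cpt2*, *Hadha* and *Hadhb*). The direct repeat bound by PPAR factors, AGGTCA repeated after 1 base of any kind, was searched on both strands; it occurs in none of their 11 windows and in 0.0396% of all promoters. Its single copy, AGGTCA, occurs in the windows of *Acadm*, *Acadvl* and *Cpt1a* and in 16.3% of all promoters.

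*Acaa2*, the medium-chain thiolase (ENSMUSG00000036880), was lowest in AST4 with 111.2 and 98.9 CPM. Without TMM these were 122.9 and 110.7 CPM, with an AST2 sum of 119.01 CPM between them. The cortical sums had 368.8 and 204.985 CPM in AST1, 267.5 and 262.5 CPM in AST2 and 348.2 and 338.7 CPM in AST3. The hippocampal sums had 240.7 and 240 CPM in AST1, 112.8 and 287 CPM in AST2 and 307.96 and 272.9 CPM in AST3. The AST4 difference of −1.27 ± 0.45 was the largest of the 9 genes other than *Dbi* in that subtype and was not called (adjusted p = 0.400). Over all astrocytes *Acaa2* had 279.3 and 253.97 CPM in cortex and 213.5 and 202.4 CPM in hippocampus, without overlap (−0.36 ± 0.08, adjusted p = 0.238), and DESeq2 and limma called it (adjusted p = 0.00718 and 0.0493). At equal subtype it was −0.12 ± 0.27 and was not called by edgeR, DESeq2 or limma.

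*Acaa2* was all but missing from neurons, where 1 of 17 cells held 1 count, and it was called lower there than in astrocytes (adjusted p = 0.000783 by the edgeR fit). A fitted fold change gives no size at such counts, and the call was lost without the second hippocampal suspension (adjusted p = 0.0561), which leaves 1 neuronal sum. Of the astrocytes 43.2% held a count of *Acaa2*, of the endothelial cells 46.7% and of the mural cells 16.4%. Endothelial sums of *Acaa2* had 92.3, 458 and 314.4 CPM, on both sides of the astrocyte mean of 341.8 ± 51.6 CPM (SD, n = 4) in the same fit.

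*Bdh1*, the ketone body dehydrogenase (ENSMUSG00000046598, chr16:31422280-31458901, plus strand), was found in 577 of 1781 astrocytes (32.4%). It lay at 105 and 77.5 CPM in cortex and 110 and 112.6 CPM in hippocampus over all astrocytes (0.29 ± 0.18, adjusted p = 0.622). AST2 had 99.9 and 81.9 CPM in cortex and 58.5 and 36.1 CPM in hippocampus, and AST1 had 96.7 and 83.2 CPM in cortex and 124.2 and 130 CPM in hippocampus. The cortical sums of these subtypes overlap and the hippocampal ones do not. The hippocampal AST2 values rest on 2 of 10 and 3 of 22 cells with a count. Whether the area difference of *Bdh1* differed between AST1, AST2 and AST3 was tested by edgeR, and it was not called (adjusted p = 0.363). In vessel cells it was at or near 0: 2.24% of mural cells (3 cells, all of the second hippocampal suspension) and 0 of 30 endothelial cells held a count, the latter allowing a share of up to 10%. Neither contrast was called by edgeR (adjusted p = 0.190 and 0.0781), whereas DESeq2 and limma called both, in fits that called 28.4% and 22.8% of all genes in mural and 36.5% and 27.9% in endothelial cells. An annotated antisense gene overlaps *Bdh1*, and the strand setting of the counting is not given in the sources used here.

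**Figure D4:**
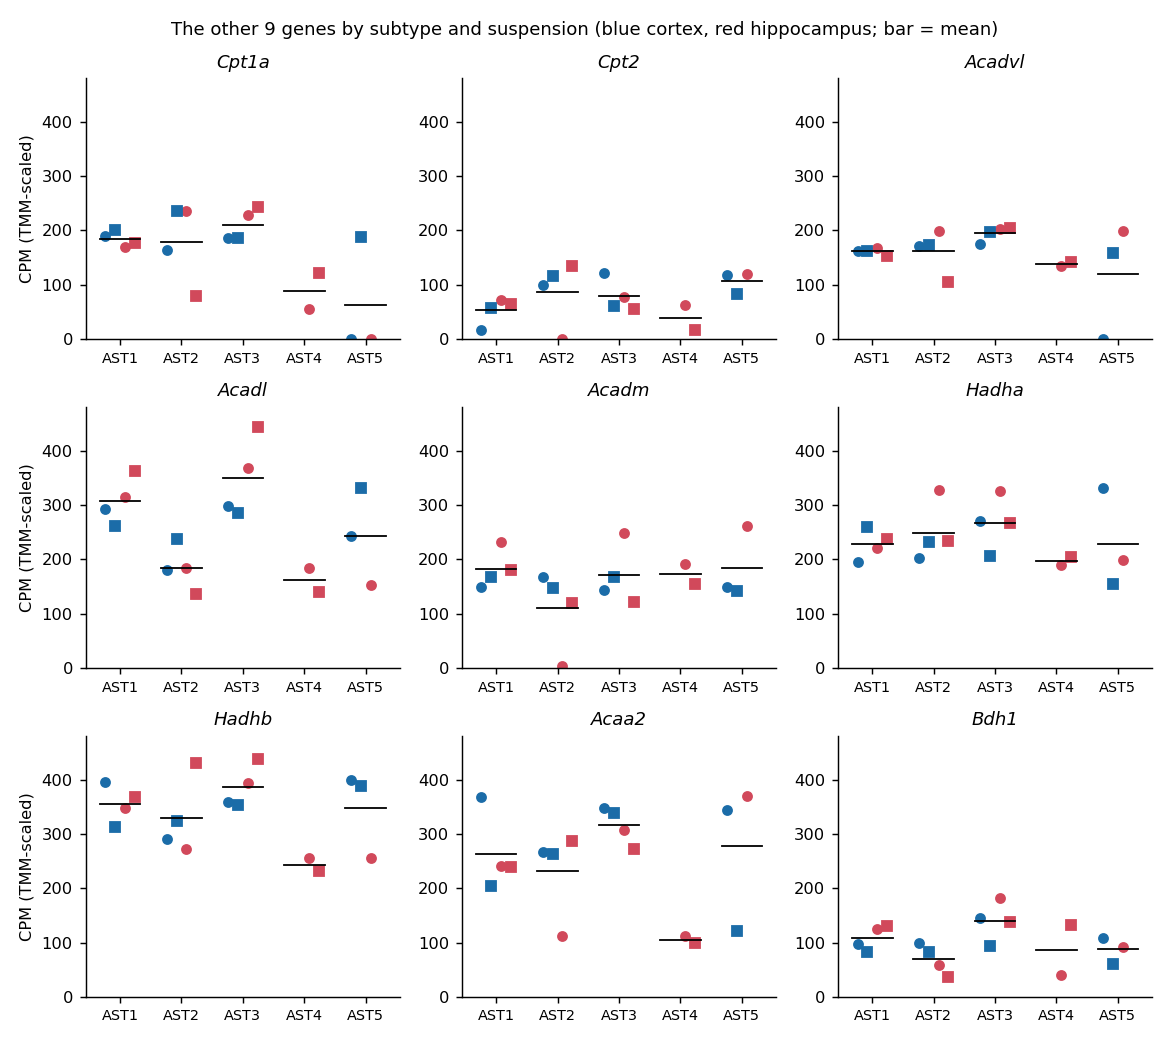
Level of the 9 genes other than *Dbi* (CPM after TMM scaling, vertical axes on a common scale) in the summed cells of each subtype and suspension (points; blue cortex, red hippocampus; circles first, squares second suspension; bars are means). *Hadhb* and *Acaa2* lie at their lowest in AST4 with this scaling (232.3 to 255.1 and 98.9 to 111.2 CPM), while the points of the other subtypes overlap for most genes.

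Of the 9 genes other than *Dbi*, none was called in any subtype by edgeR with TMM scaling and all 4 suspensions. This stands beside the shares of all genes given above for AST2, AST4 and AST5, 0.0384% in AST1 and 0% in AST3. In AST5, edgeR without TMM called *Hadhb*, and limma called *Cpt1a*, *Cpt2* and *Acadm*, with the shares of all genes given in the last section. An unadjusted p under 0.05 was reached by 1 of the 10 in AST1, against 4.29% of all genes. For AST4 it was 3 (7.82% of all genes), for AST2 it was 2 (2.62%), and AST3 and AST5 had 1 each (1.89% and 28.03%). In AST3, 727 of all genes were called by DESeq2 and 3 by limma. All 10 fitted log2 differences were above 0 in AST3 (0.19 to 0.66, median 0.29, against 0.17 over all genes), and 9 or 10 were in each of the 15 other settings. With the other subtypes weighted equally the median of the 10 was 0.38, below the 0.87 over all genes. In AST4, 8 of the 10 were below 0 (median −0.48 against 0.05 over all genes, and 6 to 8 were in the other settings, with 7 without TMM, where these medians were −0.21 and 0.34, and 6 by limma and without the first hippocampal suspension, at medians of −0.16 and −0.22 against 0.06 and −0.21 over all genes), and the 9 genes other than *Dbi* summed to 1224 and 1244 CPM there, below the 1394 to 2335 CPM of the other subtype sums.

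The number of these genes with a count per cell was higher in AST3 than in AST1 and AST2. After thinning, an AST3 cell held a count of 4.83 to 5.36 of the 10 genes on average in the 4 suspensions. AST1 cells held 3.60 to 4.26 and AST2 cells 3.40 to 3.93, so the ranges do not overlap with that of AST3. AST4 cells held 3.90 and 4.04, and AST5 cells, at 4.30 to 5.00, overlapped AST3. AST3 cells also held more genes of any kind at this depth, with medians of 1619 to 2066.5 genes per cell against 1429 to 1642 in AST1 and 1454 to 1694.5 in AST2. AST4 cells held 1920 and 2017 genes and AST5 cells 1129 to 1373, and the part of that difference in the counts of these 10 was not tested.

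**Figure D5:**
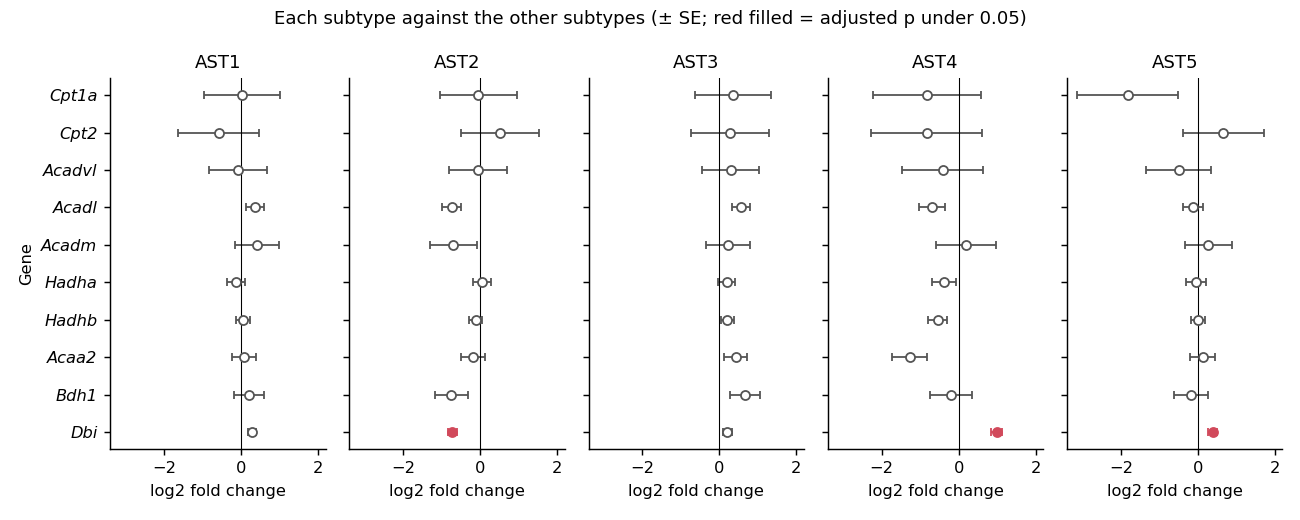
Fitted log2 fold change of each gene (rows) in each subtype against the other subtypes, with SE bars; red filled points passed an adjusted p under 0.05. Only *Dbi* passed, in AST2 (−0.73), AST4 (0.99) and AST5 (0.38), and all 10 points lie above 0 in AST3.

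Another 67 genes of the pathway were collected by function, of which 63 were tested between subtypes. They were chosen with earlier results of these data known, so their shares called are a description and not a test of the pathway. None was called in AST1, AST2 or AST3, where 0.0384%, 0.0548% and 0% of all genes were. In AST4, 7 of 63 were called, 1 higher and 6 lower, against 0.636% of all genes (20 higher and 96 lower). *Fabp7*, the brain fatty acid binding protein of radial glia and progenitors, rose by 1.67 ± 0.25 (adjusted p = 0.00328). Lower were *Acsl6* (−1.90 ± 0.15, adjusted p = 1.43e-05), *Acsl3* (−1.41) and *Slc27a1* (−1.25), which activate or import fatty acids, *Crot* (−1.99), the peroxisomal carnitine octanoyltransferase, *Ppargc1a* (−2.24), a coactivator of mitochondrial genes, and *Nr1d1* (−2.97), a clock repressor. *Acsl6* was called in 15 of 15 other settings and *Fabp7* in 14, the others in 8 to 12, and the number of the list called in other settings ran from 1, without the second hippocampal suspension (0.0846% of all genes called), to 10 by DESeq2 (11.5% of all genes called). None of the 16 genes of the mitochondrial oxidation list was called in AST4, at a median of −0.04.

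In AST5, 15 of 63 were called, 2 higher and 13 lower, against 17% of all genes (65 higher and 3029 lower). Of those higher, *Scp2*, a peroxisomal thiolase and sterol carrier, differed by 1.02 ± 0.27 (adjusted p = 0.0170). *Slc27a1* (−2.82), *Acsl3* (−2.48), *Acss1* (−1.05) and *Acsl6* (−0.85) were lower, and the other 9 had no count in any AST5 sum. Between areas within AST2, 3 of 64 were called (4.69%), against 4.16% of all genes, whose median log2 difference was −0.89. *Slc25a20*, the carnitine-acylcarnitine carrier, was lower in hippocampus (−1.50 ± 0.32 on the log2 scale, adjusted p = 0.0405), and the others were *Acox3* and *Acad8*, also lower. These 3 calls were lost without either cortical suspension, which leaves cortical AST2 with 1 sum.

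In mural cells 11 of 63 were called against 15.1% of all genes, and in endothelial cells 8 of 63 against 5.61%. *Acsl1*, an acyl-CoA synthetase, was 6.68 ± 0.54 higher in mural cells (adjusted p = 0.000124), 4.87 ± 0.51 higher in endothelial cells (adjusted p = 0.000603) and 3.43 ± 0.54 higher in neurons (adjusted p = 0.00557), and it was called in 14 of 14 other settings in both vessel types. The mural markers in the endothelial sums stand beside the endothelial value. The other 10 called in mural cells and the other 7 in endothelial cells were lower, among them *Crot* (−3.42 and −3.97) and *Phyh* (−1.75 and −2.38), a peroxisomal enzyme of branched fatty acids, in both types. Of all genes called, 2210 of 2623 were lower in mural cells and 700 of 977 in endothelial cells. Of 14 other settings, *Crot* was called in 8 in mural and 5 in endothelial cells, and *Phyh* in 7 and 10. *Eci2* (−2.70) was lower in mural cells. In neurons *Hadh*, with no count there, was called lower. The most abundant of all 67 in astrocytes was *Acsbg1*, the bubblegum acyl-CoA synthetase, at 2856 CPM and with a count in 96.0% of cells.

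The gene whose level was most like that of *Dbi* over the 17 subtype sums was *Gfap*, the astrocyte intermediate filament (Pearson r = 0.88 over log2 CPM), among 8801 genes with a mean of at least 10 CPM. *Tmbim6* (r = 0.84), *Nnat* (r = 0.83), *Rps27* (r = 0.82) and *Calcrl* (r = 0.82) followed. *Gfap* had a mean of 1873 CPM in AST4 and ran from 91.2 to 1924 CPM over the sums. The points share animals, depth and subtype. Among the 10 genes themselves the 45 pairs had r of −0.43 to 0.92 over the sums, with a median of 0.13, and −0.00 to 0.09 over 1781 single cells. The highest was that of *Cpt2* and *Acadm*, which had 0 and 57 counts in the AST2 sum of 10 cells.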

How the data were processed

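Single cells were measured by Smart-seq2 without molecular tags, with ERCC spike-ins, on an Illumina NextSeq. The authors checked reads with FastQC 0.11.4, aligned them with STAR 2.5.2b to GRCm38.p5 with the Gencode M12 annotation and counted unique reads per gene with HTSeq. The deposited counts are whole reads per gene in each cell, not normalized. The table of the whole series names 2023 columns that were not used; in the 8 that were compared with the per-cell files, totals were equal. Cell types and subtypes are those of the authors' own list; 15 cells without a type and 33 cells not in the list entered no comparison.

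Counts were summed per type and suspension over at least 5 cells. The sums were scaled by TMM, filtered with filterByExpr and tested with edgeR 4.0.16 (robust quasi-likelihood F test, two-sided; R 4.3.3), with Benjamini-Hochberg adjustment. A subtype was contrasted with the others, each weighted by its number of cells, with brain area as a covariate (17 sums); areas were compared over 4 sums of all astrocytes and over 12 sums of AST1 to AST3 with their interaction; types were compared over 13 sums. DESeq2 1.42.0, limma 3.58.1 on mean log2(CPM + 1), other scalings, filters, weights and cell minimums, thinning to 50000 counts, and leaving out each suspension were alternatives; 2 of them (no TMM, and leaving out cells with under 3% of reads outside exons) were chosen after seeing the data. The edgeR steps were run on simulated sums, drawn independently and with less spread than the sums here. That run checks the code and does not give the error rates or power of these fits. Sums of a suspension share animals; same-suspension deviations correlated by −0.04 to 0.01, and a fit with the suspension as replicate block was an alternative. Shares carry Wilson 95% intervals, and a count of 0 allows up to 3 counts.

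All 10 genes, called genes and the most abundant gene of 7 pathway lists, and the 5 genes most correlated with *Dbi* at a mean of at least 10 CPM were named; a few items that this rule covers are not reported here. The genes and lists were chosen with earlier results of these data known.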

Additional observations from a re-analysis of the deposited data

Results flagged for a closer look

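Within groups of 4 sums, 4 of 50 groups held a sum far from the others, and chance flags about 1 in 20 groups. *Acaa2* had 112.8 CPM in the AST2 sum of the first hippocampal suspension, against 262.5 to 286.7 CPM in the other AST2 sums; that sum holds 10 cells. *Acadm* had 288 CPM in the astrocytes of the first hippocampal suspension, against 202.9 to 209.9 CPM, in the scaling of the cell type fit. *Bdh1* had 8.24 CPM in the mural cells of the second hippocampal suspension, against 0 in the others. *Cpt2* had 87.4 CPM in the mural cells of the first hippocampal suspension, against 0 to 4.31 CPM. Of the cells outside all comparisons, 15 of the 15 without a type and 29 of the 33 not in the authors' list held a count of *Dbi*.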

How the results depend on the processing

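Of the 1750 log2 differences of the 10 genes under other settings, 7.83% changed sign, none of them called in the report or in that setting. Among those printed for a named gene, 16 did: *Dbi* in AST1 (−0.0897 by limma, −0.0640 with equal weights) and in AST3 (−0.0975 with equal weights), *Hadhb* in AST4 (0.0429 by limma), and the values near 0 between areas at equal subtype. There *Acadl* turned to 0.0430 with RLE factors, 0.0433 by DESeq2, 0.00620 without TMM, 0.129 without the cells nearly lacking reads outside exons, 0.00910 after thinning, 0.131 with at least 10 cells per sum and ran from −0.164 to 0.165 over left-out suspensions. *Cpt2* turned to 0.0556 with RLE factors, 0.0558 by DESeq2, 0.0265 without TMM and ran from −0.327 to 0.201 over left-out suspensions, and *Acaa2* ran from −0.329 to 0.186 over them. The number of the 10 genes called moved more, and the cause was not tested. In AST2 the 1 call (*Dbi*) became 0 with RLE factors, without a low-count filter, without TMM, after thinning, by limma, with the replicate block and without the area term, and was 0 to 0 over left-out suspensions. In AST4 the count was 0 to 1 over left-out suspensions. In AST5 it became 0 without a filter, after thinning, with the replicate block, without the area term and with equal weights, 2 without TMM (17.1% of all genes called) and 4 by limma (18.5%), and was 0 to 1 over left-out suspensions. The replicate block changed no other call of these genes.

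Between areas at equal subtype, where none was called, 1 was called by DESeq2 (4.95% of all genes), with at least 10 cells per sum (0.0745%) and without the cells nearly lacking reads outside exons (0.0760%). Over all astrocytes DESeq2 called 4 (9.70% of all genes), limma 2 (2.64%) and the thinned counts 1 (1.38%). Within AST1 (8.48% of all genes) and AST3 (6.79%) DESeq2 called 1, and within AST2 RLE factors (4.09%), DESeq2 (23.1%) and no TMM (4.10%) each called 1. Over left-out suspensions, each of which leaves an area with 1 sum, the count within AST2 was 0 to 2 and that of the interaction 0 to 2, where the 2 stood beside 18.6% and 12.8% of all genes (without the second hippocampal suspension). In mural cells DESeq2 called 2 (28.4% of all genes), limma 5 (22.8%) and at least 10 cells per sum 3 (17.04%), with 0 to 1 over left-out suspensions. In endothelial cells DESeq2 (36.5%), thinning (13.4%) and no area term (18.5%) called 2, limma 4 (27.9%) and no TMM 0 (5.54%), and at least 10 cells per sum called *Acadl* in place of *Dbi* (with 1 endothelial sum left), with 0 to 1 over left-out suspensions. In neurons no TMM called 1 (2.90%) and limma 6 (27.03%), with 1 to 3 over left-out suspensions.

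Over all genes the number called ranged over settings from 0 to 1007 in AST1 (7 in the report), 0 to 958 in AST2 (10), 0 to 903 in AST3 (0), 17 to 2263 in AST4 (0.636% of genes in the report) and 1465 to 7973 in AST5 (3094). It ranged from 0 to 903 between areas at equal subtype (0), 0 to 1858 over all astrocytes (0), 0 to 1561, 4251 and 1250 within AST1 (2), AST2 (765) and AST3 (5), and 0 to 2656 for the interaction (1.81% in the report). The share of tested genes called ranged from 1.21 to 28.4% in mural cells (15.1%), 1.23 to 36.5% in endothelial cells (5.61%) and 1.12 to 30.4% in neurons (2.86%). The AST5, endothelial and neuronal values rest on sums of 6 to 12 cells each, and each area on 2 suspensions.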
